A study of Mus musculus with 6 samples.

Results

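Expression of 10 heat shock chaperone genes, Hspa1a, Hspa1b, Hspa8, Hsph1, Dnajb1, Bag3, Hsp90aa1, Hsp90ab1, Hspd1 and Hspe1, was examined in mouse bone marrow-derived basophils (BMBAs) given IL-3 or PBS. The genes were taken by symbol from a table of raw read counts that held 37043 gene symbols, and all 10 were found and passed the filter on low counts. BMBAs were grown from bone marrow of C57BL/6J wild-type mice for 7 days with a cytokine at 0.3 ng/mL and were enriched with beads against CD49b. The methods section names IL-3 as that cytokine, so every library comes from cells already grown with it. The cultures then received PBS (3 libraries) or 10 ng/mL IL-3 (3 libraries) for 6 h, and each library came from a separate culture. The age and number of the mice, and whether the PBS cultures still held any IL-3 during those 6 h, are not given in the sources used here.

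Heat shock proteins are chaperones that bind unfolded or partly folded proteins and help them to fold, to avoid clumping or to be degraded. HSP70 proteins take up client proteins in cycles of ATP hydrolysis that J-proteins start and nucleotide exchange factors, such as HSP110 and BAG proteins, end. HSP90 proteins act later, on clients such as kinases and receptors. Some of these genes are read at a high level in every cell, and others are kept low until heat or other stress activates heat shock factors, which bind to repeated GAA units in promoters. IL-3 promotes the growth of basophils and can activate them.

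The name cytosolic heat shock chaperones does not cover the whole set, since the products of Hspd1 and Hspe1 work in mitochondria. Levels are given as CPM, counts scaled by the TMM-adjusted size of each library. The libraries held 10537540 to 13999287 counts, of which the 10 genes took 0.17 to 0.173% in PBS and 0.178 to 0.2% in IL-3. Mitochondrially encoded genes took 3.53 to 3.58% of the counts in PBS and 2.01 to 2.07% in IL-3. The 9 basophil markers all passed the filter and summed to 11820 to 12960 CPM in PBS and to 16940 to 17170 CPM in IL-3, with 7 of them higher and 1 lower. Among those higher was Mcpt8, a basophil protease, with means of 3066 and 5895 CPM. Genes of other cells were also present, since 10 monocyte and macrophage markers summed to 11770 to 12710 CPM in PBS and 6176 to 6809 CPM in IL-3. In bulk RNA, fewer cells of a type and less RNA per cell cannot be told apart. IL-3 replicate 3 stood apart from the other IL-3 libraries for Hspa1a and Hspa1b, and had the lowest level among these libraries for 8 of the 10 chaperone genes, against 32.8% of all tested genes.

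Of the 10 genes, 6 were higher and 1 was lower in IL-3-stimulated than in PBS-treated BMBAs (quasi-likelihood test of edgeR, called at an adjusted p below 0.05), and 3 were not called. Among all 16675 genes tested, 18% were called higher and 20.2% lower, 38.2% in all. The number called higher was 4 with the DESeq2 Wald test and without PBS replicate 2 or IL-3 replicate 1, where Hspa1a and Hspa1b lost their calls, 5 (with 2 lower) with library totals as the only scaling, and 0 against a fold of 1.5 (edgeR glmTreat, with Hspa1a and Hspa1b at an unadjusted p below 0.05). The members called higher were Hspa8, Hsp90aa1, Hsp90ab1, Dnajb1, Hspa1a and Hspa1b, the member called lower was Bag3, and the others were Hsph1, Hspd1 and Hspe1. All 3 IL-3 libraries lay above all 3 PBS libraries for 4 members (23.8% of all tested genes) and below them for 1 member (24.4%). The median log2 fold change was 0.32 over the members and -0.0033 over all genes tested. The members summed to 1630, 1614 and 1619 CPM in the PBS libraries and to 2069, 2113 and 1935 CPM in the IL-3 libraries. That is 1621 ± 7.96 against 2039 ± 92.7 CPM (SD, n = 3 each), a ratio of 1.26 with an exact two-sided permutation p of 0.1, the smallest that 3 against 3 allows. The difference of 418 CPM was 214 CPM with library totals as the only scaling, and all tested genes together had a ratio of 1.12 on the TMM scale.

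**Figure D1:**
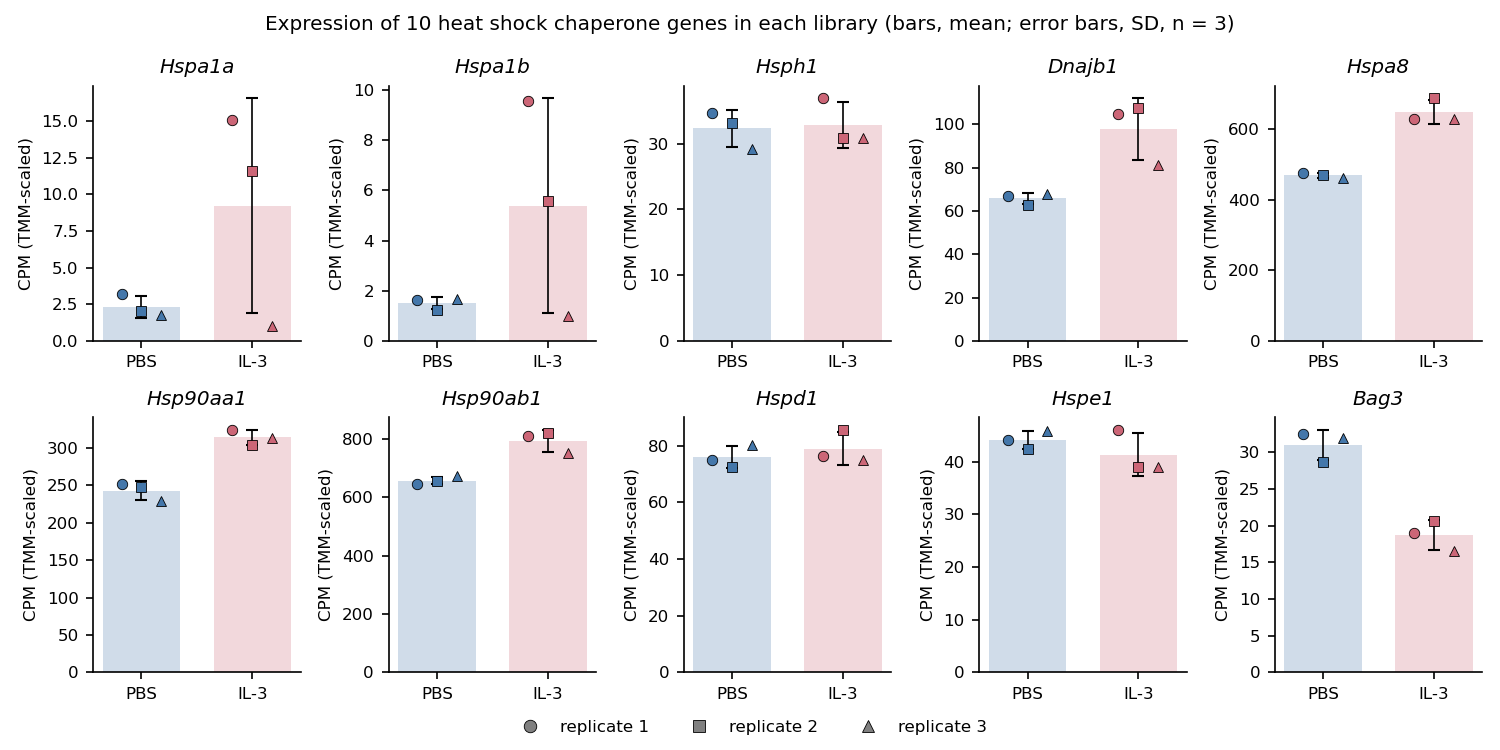
Expression of each chaperone gene in CPM after TMM scaling (y axis, from 0, own scale for each gene) in PBS and IL-3 libraries. Bars are means, error bars SD (n = 3) and points single libraries, with the shape giving the replicate number. Hspa8, Hsp90aa1, Hsp90ab1 and Dnajb1 lie higher in all IL-3 libraries, Bag3 lies lower, and the IL-3 points of Hspa1a and Hspa1b spread over a 15-fold and a 9.5-fold range.

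Levels were compared between the genes per kilobase of the longest coding transcript, since a longer transcript gives more reads. On this scale Hsp90ab1 was the highest in PBS-treated BMBAs with 261 ± 5.17 CPM per kb (SD, n = 3). Hspa8 followed with 196 ± 2.78, Hsp90aa1 with 74.0 ± 3.87, Hspe1 with 57.0 ± 2.18 and Hspd1 with 31.3 ± 1.62 CPM per kb. Dnajb1 had 21.97 ± 0.910, Bag3 12.1 ± 0.807 and Hsph1 8.50 ± 0.729 CPM per kb. Hspa1a and Hspa1b came last, with 0.783 ± 0.257 and 0.540 ± 0.0883 CPM per kb, and were the only neighbours in this order whose PBS libraries overlapped. In IL-3 the first 4 places were held by the same genes, at 315 ± 14.98, 270.4 ± 14.3, 95.8 ± 3.03 and 53.5 ± 5.30 CPM per kb. Hsp90ab1 and Hspa8 changed places in IL-3 when the counts of near-identical copies under other symbols were added, with 316 ± 14.9 and 341 ± 16.7 CPM per kb, but not in PBS (262 ± 5.17 and 247 ± 2.09). Dnajb1 (32.7 ± 4.78 CPM per kb) and Hspd1 (32.6 ± 2.42) overlapped in IL-3, and Hsph1 (8.65 ± 0.924) lay above Bag3 (7.33 ± 0.797).

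Hspa8 encodes HSC70, the HSP70 protein that most cells make without stress, and lies on chromosome 9 (40800984 to 40810087, plus strand, GRCm38). Its levels were 474, 470.1 and 461 CPM with PBS against 628, 687 and 627 CPM with IL-3. The groups did not overlap and the spread within each was small beside the gap. With means of 468 ± 6.65 and 647 ± 34.3 CPM, Hspa8 rose by 0.47 on the log2 scale (SE 0.05, edgeR adjusted p = 1.85e-06). The transcripts of Hspa8 shared 38.6% of their 50-mers with those of other symbols, among them the pseudogene Gm15459, which held 34.6%. Together with the 9 symbols that each held at least 1% of its 50-mers, which took 20.7% of the summed counts, the log2 fold change was 0.46.

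The cytosolic HSP90 proteins come from Hsp90aa1, which heat can raise further, and Hsp90ab1, which is read at a steady high level. Hsp90aa1 (chromosome 12, 110690605 to 110702728, minus strand) had 252, 248 and 228 CPM in PBS and 324, 305 and 314 CPM in IL-3. Hsp90ab1 (chromosome 17, 45567775 to 45573271, minus strand) had 646, 654 and 671 CPM in PBS and 809, 821 and 750.4 CPM in IL-3. All IL-3 libraries exceeded all PBS libraries for both genes. Hsp90aa1 rose by a log2 fold change of 0.37 (SE 0.055, edgeR adjusted p = 5.65e-05). Hsp90ab1 rose by 0.27 (SE 0.0482, edgeR adjusted p = 0.00031), but its call was lost with library totals as the only scaling (0.11, adjusted p = 0.128). That scaling shifted the log2 fold changes of all genes by a median of -0.163, and 25.2% rather than 47.1% of all calls were then higher in IL-3.

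The split between the HSP90 genes does not depend on scaling. Hsp90aa1 took 28.1%, 27.5% and 25.4% of their joint reads in PBS and 28.6%, 27.0% and 29.5% in IL-3. The groups overlapped, with means of 27.0 ± 1.42% and 28.4 ± 1.23% (SD, n = 3 each, exact two-sided permutation p = 0.3, smallest possible 0.1). Hsp90aa1 shared 47.5% of its 50-mers with other symbols, mainly Gm12346 and Gm5844. With these copies summed in, its log2 fold change was 0.38 and its share of HSP90 reads had means of 31.1 ± 1.34% and 32.6 ± 1.32% (exact two-sided permutation p = 0.3).

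Dnajb1 encodes HSP40, the J-protein that hands clients to HSP70, and lies on chromosome 8 (83608193 to 83612653, plus strand). It had 67.0, 62.7 and 67.7 CPM in PBS and 105, 107 and 81.4 CPM in IL-3. Every IL-3 library was above every PBS library, and replicate 3 was the lowest of the IL-3 libraries. Dnajb1 rose 1.48-fold, a log2 fold change of 0.57 (SE 0.0901, edgeR adjusted p = 0.000109). Of the 1916 genes expressed at or above its mean level, 33 (1.72%) had as wide a ratio between the highest and lowest IL-3 library as its 1.32.

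Hsph1 encodes HSP110, a nucleotide exchange factor of HSP70, and lies on chromosome 5 (149614287 to 149636376, minus strand). It had 34.6, 33.1 and 29.2 CPM in PBS and 36.9, 30.8 and 30.9 CPM in IL-3, so the groups overlapped. Its log2 fold change was 0.019 with a 95% interval of -0.19 to 0.23 (edgeR adjusted p = 0.906), and the sign turned with library totals (-0.14), with iterated TMM (-0.0049) and without PBS replicate 3 or IL-3 replicate 1.

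Bag3 encodes another HSP70 partner, which steers clients to autophagy, and is itself a heat shock gene on chromosome 7 (128523616 to 128546981, plus strand). It had 32.5, 28.7 and 31.98 CPM in PBS and 19.1, 20.7 and 16.6 CPM in IL-3. All IL-3 libraries lay below all PBS libraries. Bag3 fell to 0.604 times its PBS level, a log2 fold change of -0.73 (SE 0.108, edgeR adjusted p = 5.61e-05). No 50-mer of Bag3 or Hsph1 was found under another symbol. Reads that could map with mismatches to less similar sequences were not examined. Thus the genes of the HSP70 cycle differed in direction, with Hspa8 and Dnajb1 higher in all IL-3 libraries and Bag3 lower in all of them.

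Hspd1 and Hspe1 encode HSP60 and HSP10, which form the folding chamber of mitochondria, and are read from neighbouring starts on opposite strands of chromosome 1 (55077835 to 55088243, minus strand, and 55088132 to 55091307, plus strand). Hspd1 had 74.9, 72.6 and 80.2 CPM in PBS and 76.4, 85.7 and 74.8 CPM in IL-3. Hspe1 had 44.1, 42.4 and 45.8 CPM in PBS and 46.1, 39.1 and 38.9 CPM in IL-3. The groups overlapped for both genes. The log2 fold change was 0.057 for Hspd1 (95% interval -0.093 to 0.21, edgeR adjusted p = 0.569) and -0.096 for Hspe1 (95% interval -0.28 to 0.086, edgeR adjusted p = 0.418). With library totals as the only scaling, Hspd1 turned to -0.11 and Hspe1 was called lower (-0.26, edgeR adjusted p = 0.0355). Hspd1 turned to -0.0078 without IL-3 replicate 2. Without these 2 genes the members summed to 1501 ± 9.06 CPM with PBS against 1919 ± 86.9 CPM with IL-3, a ratio of 1.28.

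**Figure D2:**
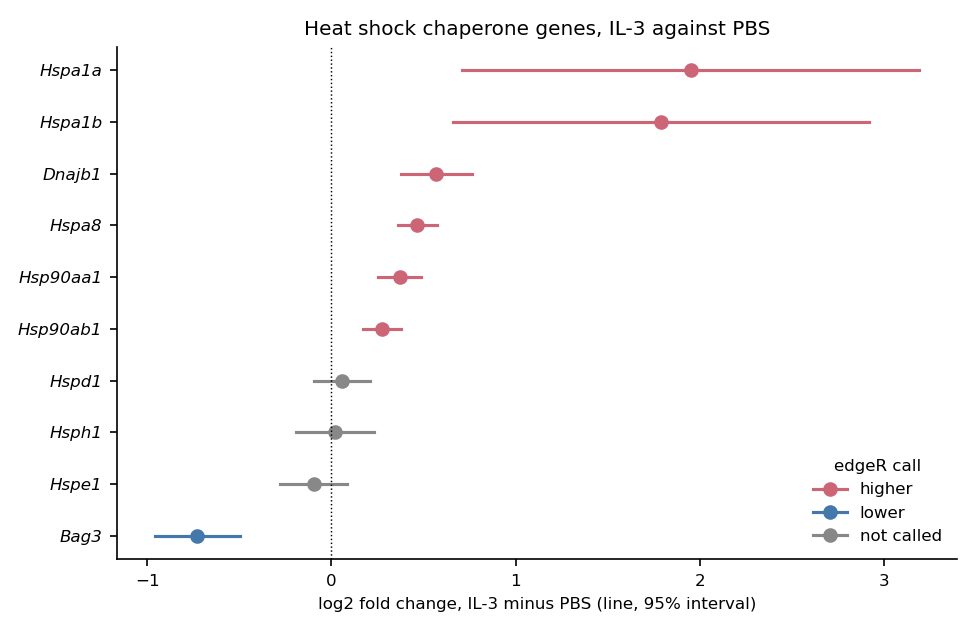
Log2 fold change of each chaperone gene, IL-3 minus PBS (x axis; points, edgeR estimate; lines, 95% interval; colours, call at an adjusted p below 0.05). Bag3 lies at -0.73, Hspe1, Hsph1 and Hspd1 have intervals over 0, and the intervals of Hspa1a and Hspa1b are the widest.

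Hspa1a and Hspa1b encode the stress-inducible HSP70 and are near-identical neighbours on the minus strand of chromosome 17 (34969190 to 34972156 and 34956436 to 34959238). Hspa1a shared 60.3% and Hspa1b 62.3% of its 50-mers with other symbols, chiefly each other, so the split of reads between them is uncertain and their sum is less so. Their promoters are printed to show how alike the copies are in front of the start too. Over the 120 bases before the start, 119 were identical, and over the RefSeq windows of 300 bases (GRCm38.p6, 250 before to 50 after the start) 296 were. The capitals mark the letters GAANNTTC, in which GAA units face each other as in a heat shock element.
Hspa1a, chr17:34972157-34972276, minus strand: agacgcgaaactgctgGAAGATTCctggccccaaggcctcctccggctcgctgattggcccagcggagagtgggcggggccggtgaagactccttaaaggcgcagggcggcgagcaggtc
Hspa1b, chr17:34959239-34959358, minus strand: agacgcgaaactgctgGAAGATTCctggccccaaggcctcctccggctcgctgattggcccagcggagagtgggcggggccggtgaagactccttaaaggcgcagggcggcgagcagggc

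Hspa1a had 39, 23 and 20 counts in the PBS libraries, or 3.19, 2.02 and 1.76 CPM, and 153, 139 and 13 counts in the IL-3 libraries, or 15.1, 11.6 and 1.01 CPM. Hspa1b had 20, 14 and 19 counts in PBS (1.64, 1.23 and 1.67 CPM) and 97, 67 and 13 counts in IL-3 (9.58, 5.58 and 1.01 CPM). IL-3 replicates 1 and 2 were above every PBS library for both genes, whereas IL-3 replicate 3 was below every PBS library for both, so the groups overlapped. The mean of IL-3 replicates 1 and 2 was 5.74 times the PBS mean for Hspa1a and 5.01 times for Hspa1b, and replicate 3 was at 0.434 and 0.667 times. Exact Poisson 95% intervals for replicate 3 reached from 0.537 to 1.72 CPM for each gene, and those of replicate 2 from 9.73 to 13.7 CPM for Hspa1a and from 4.32 to 7.09 CPM for Hspa1b. These intervals cover counting error only, and not the spread between cultures.

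The fit gave log2 fold changes of 1.95 for Hspa1a (SE 0.582, edgeR adjusted p = 0.0147) and 1.79 for Hspa1b (SE 0.532, edgeR adjusted p = 0.0143). Summed to a single gene they gave 1.90 (SE 0.538, 95% interval 0.75 to 3.04, edgeR adjusted p = 0.0108), while an exact two-sided permutation test of the summed CPM gave p = 0.4. These calls were lost in other tests on the same counts. The DESeq2 adjusted p was 0.11 for Hspa1a, 0.083 for Hspa1b and 0.0908 for the sum. The robust edgeR fit gave adjusted p of 0.24, 0.197 and 0.225, and limma-voom gave log2 fold changes of 1.19, 1.22 and 1.21 with adjusted p of 0.298, 0.182 and 0.236. In each of these tests 4 members were called higher.

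Single libraries also decided the calls of Hspa1a and Hspa1b. Without IL-3 replicate 1 the log2 fold change was 1.41 for Hspa1a (edgeR adjusted p = 0.0883), 1.10 for Hspa1b (0.115) and 1.30 for the sum (0.0751). Without PBS replicate 2 it was 1.85 for Hspa1a (edgeR adjusted p = 0.0521) and 1.66 for Hspa1b (0.0536). Hspa1a also lost its call without PBS replicate 3 (1.78, edgeR adjusted p = 0.0559) and without IL-3 replicate 2 (1.73, 0.0536). Without IL-3 replicate 3 the values were 2.51 for Hspa1a (edgeR adjusted p = 4.93e-07), 2.31 for Hspa1b (1.4e-05) and 2.44 for the sum (1.05e-07). The number of members called higher was therefore 4 without IL-3 replicate 1 or PBS replicate 2, and 6 without IL-3 replicate 3.

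**Figure D3:**
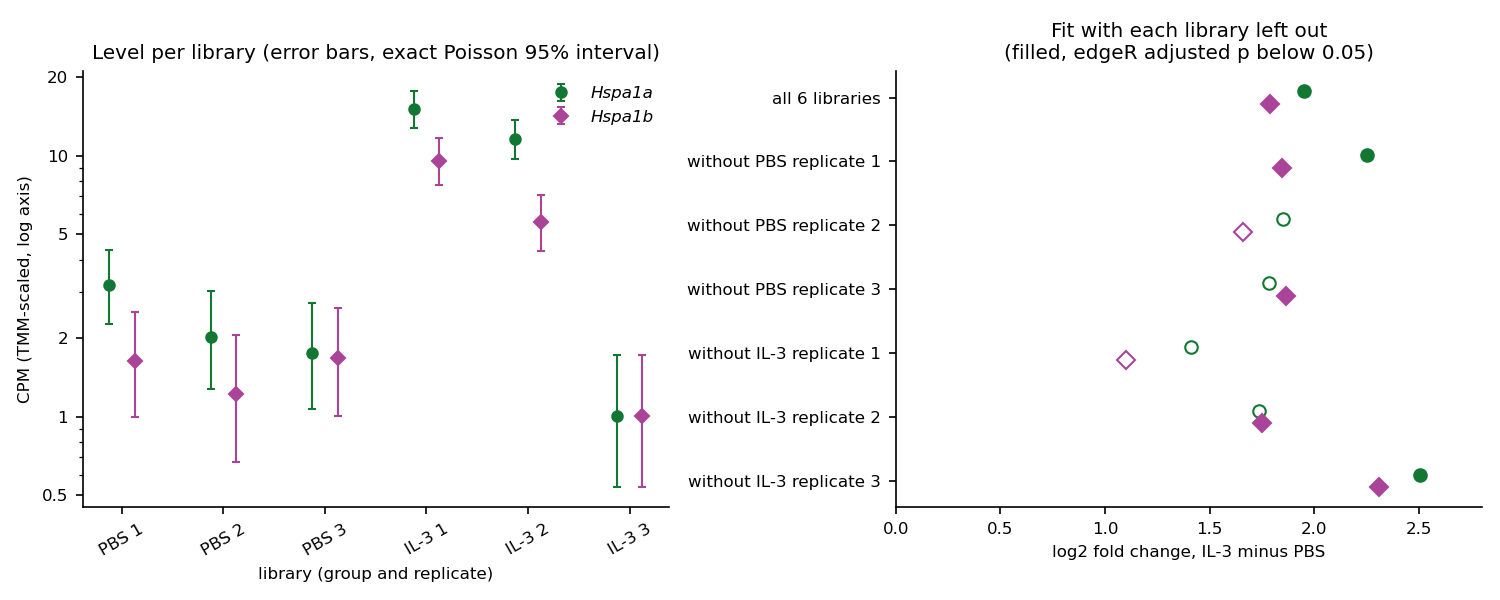
Left, level of Hspa1a and Hspa1b in each library (y axis, CPM after TMM scaling, log axis; error bars, exact Poisson 95% interval). Right, log2 fold change with all 6 libraries and with each library left out (filled, edgeR adjusted p below 0.05; open, not below). IL-3 replicates 1 and 2 lie between 5.58 and 15.1 CPM, and IL-3 replicate 3 lies at 1.01 CPM, below all PBS libraries.

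The spread of Hspa1a within the IL-3 group was wide for its level. Its highest IL-3 library was 15 times its lowest, and 0 of the 10821 tested genes at or above its mean level had as wide a ratio. For Hspa1b the ratio was 9.5, matched by 2 of 12284 genes, namely Cdkn1c and its own near-identical copy Hspa1a. In the PBS group the ratio was 1.81 for Hspa1a and 1.36 for Hspa1b, and 1.26% and 17.4% of these genes were as wide. Hspa1a and Hspa1b took 1.01%, 0.685% and 0.740% of the reads of Hspa1a, Hspa1b and Hspa8 in PBS, and 3.78%, 2.44% and 0.321% in IL-3 (means 0.811 ± 0.173% and 2.18 ± 1.74%, SD, n = 3 each, exact two-sided permutation p = 0.4). Within their sum, Hspa1a took 51.3 to 66.1% in PBS and 50 to 67.5% in IL-3, a split that rests on reads the copies share.

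Genes of megakaryocytes and platelets, a list chosen after the values were seen, also set IL-3 replicate 3 apart. The 11 genes summed to 1228 to 1991 CPM in PBS, to 667 and 760.3 CPM in IL-3 replicates 1 and 2, and to 1314 CPM in IL-3 replicate 3. Ppbp, a platelet chemokine, had 236, 438 and 261 CPM in PBS and 64.1, 39.8 and 255 CPM in IL-3. Of these genes 4 were lower, 0 higher and 7 not called in IL-3 by edgeR (1 higher at an unadjusted p below 0.05, and 0 by DESeq2, limma-voom or the robust fit). Their part in the levels of Hspa1a and Hspa1b was not tested.

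Promoter windows were also searched on both strands for GAA units, and 7 of the 10 genes had RefSeq windows, 10 windows in all. The letters GAANNTTC followed by NNGAA, or TTCNNGAA followed by NNTTC, with 3 units in a row, were found for Hsph1, Hspd1 and Hspe1, and in 0.603% of all 32851 windows. A gene was counted when any of its windows matched, whereas the share is over windows. The other window of Hspd1 held neither motif. The letters GAANNTTC or TTCNNGAA, with 2 units and also contained in the longer motif, were found for 6 of these genes, for all except Dnajb1, and in 15.1% of all windows. Hspa8, Hsp90aa1 and Hsp90ab1 had no window in the promoter set used, so they were not searched for either motif. The stretches with the longer motif and that of Bag3 are shown. Those of Hsph1 (7 to 36) and Bag3 (20 to 49) lie after the RefSeq start, and that of Hspe1 (-95 to -66) lies before it. The match of Hspd1 and Hspe1 is the same stretch read from either strand. A match is a description of the letters and does not show that a factor binds there.
Hsph1, chr5:149636279-149636308, minus strand: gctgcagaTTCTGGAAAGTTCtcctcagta
Hspe1 and Hspd1, chr1:55088053-55088082, plus strand: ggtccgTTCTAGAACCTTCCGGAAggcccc
Bag3, chr7:128523603-128523632, plus strand: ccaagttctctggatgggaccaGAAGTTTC

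Other genes of the same network were taken from lists of chaperones and of their partners. Each list count below stands beside 18% called higher and 20.2% called lower among all tested genes. Among the heat shock factors, the transcription factors that drive these genes, Hsf1 rose (20.9, 14.6 and 19.4 CPM with PBS against 27.2, 26.9 and 23.3 CPM with IL-3, log2 fold change 0.49, SE 0.13, edgeR adjusted p = 0.00711). Its call was lost with library totals as the only scaling (0.33, edgeR adjusted p = 0.0622). Hsf2 fell (10.7, 14.03 and 12.95 CPM with PBS against 7.41, 9.33 and 9.70 CPM with IL-3, log2 fold change -0.50, SE 0.154, edgeR adjusted p = 0.0173). The call of Hsf2 was lost without PBS replicate 2 (-0.42, edgeR adjusted p = 0.0757) and without IL-3 replicate 1 (-0.40, 0.075). The third tested factor, Hsf4, and Hsbp1, a protein that binds heat shock factors and was kept on the same list, were not called.

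Among 8 other tested HSP70 and HSP110 genes, 5 were higher and 1 was lower in IL-3, with a median log2 fold change of 0.24 (0.076 with library totals). Hspa5, the HSP70 of the endoplasmic reticulum (ER) known as BiP, had 333, 332 and 342 CPM in PBS and 507, 524 and 530.4 CPM in IL-3 (log2 fold change 0.63, SE 0.0475, edgeR adjusted p = 2.76e-08). Hyou1, its ER partner, rose by 0.58 (SE 0.075), whereas Hspa4l, an HSP110, fell by 0.45 (SE 0.0907). Of 16 other J-protein genes, 7 were higher (43.8%) and 2 lower (12.5%), against 18% and 20.2% of all tested genes. Their median log2 fold change was 0.18 (0.012 with library totals). Dnaja1, a cytosolic J-protein, rose from 84.0 ± 2.85 to 148 ± 11.5 CPM (log2 fold change 0.81, SE 0.0664, edgeR adjusted p = 7.64e-08). Dnajb6 rose by 0.53 (SE 0.0603), and Dnajb14, an ER membrane J-protein, fell by 0.62 (SE 0.0794). Thus within the J-proteins, as within the members and within all tested genes, the directions differed.

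Among the 9 other partners of HSP70, 1 was higher and 1 lower (median 0.033, -0.13 with library totals). These were Bag5 (log2 fold change 0.34, edgeR adjusted p = 0.0433) and Bag4 (-0.28, 0.048), relatives of Bag3, and both calls were lost with DESeq2 (adjusted p = 0.0571 and 0.0945) and without each of several single libraries: PBS replicates 1 and 2 and IL-3 replicates 1 and 2 for both, and IL-3 replicate 3 for Bag4. Of 17 co-chaperones of HSP90, 7 were higher and 1 was lower (median 0.013, -0.15 with library totals). Unc45a, a myosin chaperone that works with HSP90, rose from 40.2 ± 0.240 to 67.1 ± 3.85 CPM (log2 fold change 0.74, SE 0.0724, edgeR adjusted p = 6.71e-07). Fkbp5, an immunophilin, rose by 0.51 (SE 0.0628) and Ptges3, the co-chaperone p23, by 0.41 (SE 0.0556).

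The cytosolic chaperonin CCT and prefoldin, which fold actin and tubulin, had 5 of 14 genes higher and 0 lower in IL-3 by edgeR (0 lower also at an unadjusted p below 0.05 and by DESeq2, limma-voom or the robust fit, median 0.17, 0.011 with library totals). The lowest log2 fold change among them was 0.0025. Cct6a rose by 0.45 (SE 0.0617), and Cct3 and Cct8 by 0.35 (SE 0.0826) and 0.33 (SE 0.0637), these 2 calls being lost with library totals. Of 10 mitochondrial chaperones and chaperone proteases, 3 were higher (30%) and 2 lower (20%), against 18% and 20.2% of all tested genes. Their median was 0.053 (-0.11 with library totals). Hscb, a J-protein of iron-sulfur cluster assembly, fell from 27.5 ± 1.08 to 12.2 ± 1.05 CPM (log2 fold change -1.17, SE 0.112, edgeR adjusted p = 4.93e-07). Clpb, a disaggregase, fell by 0.67 (SE 0.15), while Hspa9, the mitochondrial HSP70, rose by 0.26 (SE 0.0643), a call lost with library totals (0.096). Hspa9 is also on the list of other HSP70 genes, so its call is counted in both lists. Of the small heat shock proteins only 2 could be tested, and these were at low levels, with Hspb7 higher (0.860 ± 0.408 to 2.18 ± 0.413 CPM) and Hspb6 lower (3.02 ± 0.403 to 1.54 ± 0.393 CPM), a call lost without PBS replicate 1 or IL-3 replicate 1 (edgeR adjusted p = 0.0542 and 0.0593).

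**Figure D4:**
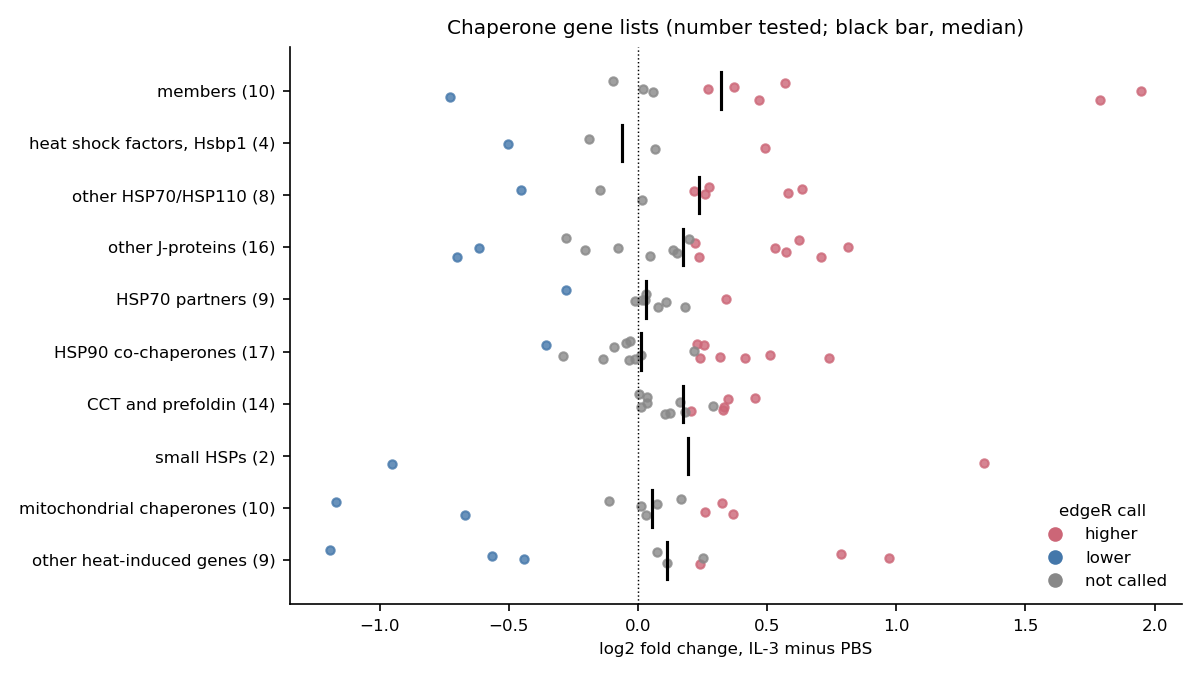
Log2 fold change, IL-3 minus PBS (x axis), of each tested gene in each list (y axis, number tested in brackets). Points are genes coloured by edgeR call, and black bars are medians. Of the 10 lists, 9 hold genes called in both directions, and CCT and prefoldin hold none called lower. Hspa9 is drawn both among other HSP70/HSP110 genes and among mitochondrial chaperones.

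Of 9 other tested genes that heat or protein damage can induce, 3 were higher and 3 lower (median 0.11, -0.052 with library totals). Hmox1, heme oxygenase, had 1290, 1415 and 1310 CPM in PBS and 560, 602 and 597 CPM in IL-3 (log2 fold change -1.19, SE 0.0501, edgeR adjusted p = 2.19e-11). Zfand2a, a proteasome-associated protein raised by arsenite, fell by 0.56 (SE 0.0712), and Ier5, an immediate early gene, rose by 0.79 (SE 0.0643). Immediate early genes, which respond to cytokines and also to cell handling, were higher in 8 and lower in 1 of 13 cases (median 0.34, 0.18 with library totals), with sums of 1109 to 1213 CPM in PBS and 2280 to 2742 CPM in IL-3. Ier3 rose from 122 ± 5.26 to 581 ± 27.3 CPM, Jund from 208 ± 9.96 to 604 ± 30.5 CPM and Egr1 from 60.1 ± 9.02 to 363 ± 121 CPM. Egr1 had 307, 502 and 281 CPM in the IL-3 libraries, so IL-3 replicate 3 was well above the highest PBS library, at 69.9 CPM. Fos, named after its values were seen, fell from 37.3 ± 4.06 to 19 ± 6.55 CPM (log2 fold change -0.96, edgeR adjusted p = 0.000298), and Fosb, Jun, Atf3 and Btg2 were not called. The part of handling in the chaperone levels was not tested.

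Markers of other cells moved with the groups as well. Of the tested markers, 4 of 8 of mast cells were higher and 2 lower, 2 of 10 of monocytes and macrophages were higher and 7 lower, and 3 of 7 of neutrophils were higher and 1 lower. Of 6 of eosinophils 1 was higher and 3 lower, and of 4 of erythroid cells 2 were lower and 0 higher by edgeR (1 higher at an unadjusted p below 0.05, 0 by DESeq2). Of 3 of NK, T and B cells, 0 were called by edgeR, also at an unadjusted p below 0.05, and 0 by DESeq2. The marker sums ran in PBS and IL-3 from 907 to 1041 and 1461 to 1595 CPM for mast cells, from 122 to 159 and 195 to 259 CPM for neutrophils, and from 157 to 175 and 99.6 to 140.1 CPM for eosinophils. Those of erythroid cells ran from 101.1 to 220 and 54.9 to 101.1 CPM, with Alas2 at 0 in all libraries, and those of NK, T and B cells stayed between 6.23 and 8.59 CPM. Among the IL-3 libraries, replicate 3 had the highest sum for neutrophils and eosinophils. It had the lowest sum for mast cells, for erythroid cells, and for monocytes and macrophages. By the highest mean in each list, Prss34 (basophil) had means of 5615 and 5661 CPM in PBS and IL-3, Cpa3 (mast cell) 548 and 793, Lyz2 (monocyte and macrophage) 10460 and 5348, Lcn2 (neutrophil) 41.6 and 57.6, Ear2 (eosinophil) 135 and 51.3, Ms4a1 (B cell) 2.28 and 2.23, and Hba-a1 (erythroid) 80.1 and 36.6 CPM. The 1 eosinophil marker called higher, against 3 called lower, was Prg2, with means of 4.27 and 49.8 CPM in PBS and IL-3. Hba-a1 lost its call in the robust edgeR fit (log2 fold change -1.14, adjusted p = 0.127). The part of cell makeup in the chaperone levels was not tested.

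The genes most like the summed Hspa1a and Hspa1b over the 6 libraries were Hdac2 (Pearson's r of log2 CPM 0.986), Gm7059 (0.979), Atp5g1 (0.977), Cse1l (0.970) and Zfp276 (0.963), out of 6685 genes with a mean of at least 20 CPM. Their changes were small, as Hdac2 had 30.8, 29.5 and 29.4 CPM in PBS and 34.1, 34.1 and 27.9 CPM in IL-3. Of these 5 genes 0 were called by edgeR or DESeq2, and 0 had an unadjusted p below 0.05 in edgeR, but without IL-3 replicate 3 Cse1l was called higher (log2 fold change 0.36 against 0.23 with all libraries, edgeR adjusted p = 0.0156). The points share library and depth, and the best of many genes were picked over 6 libraries, so r is only a description.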

How the data were processed

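Bulk RNA-seq libraries of 3 PBS and 3 IL-3 cultures were analysed from the table of raw counts that the authors deposited, with 0 unused sample columns. Per the methods, poly(A) RNA was bound to beads, and its cDNA was amplified and fragmented. Reads were trimmed with Cutadapt (version 3.4 in the submitters' processing notes) and mapped with Bowtie2 to reference RNA, and counts were summed by symbol. The methods name the build GRCm38 and the processing notes GRCm39. The labels name an extraction kit where the methods name direct lysis. No molecular identifiers are described, so PCR copies count as reads, and no step for reads of several origins is described. Intervals and floors cover counting error only: a count of 0 allows up to 3 counts, or 0.233 to 0.296 CPM.

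Counts were tested with edgeR 4.0.16 in R 4.3.3 (filterByExpr, TMM, quasi-likelihood F test on group alone, two-sided, Benjamini-Hochberg over 16675 genes). The study ran TCC, a tool built on edgeR. SE was the log2 fold change divided by the square root of F. Where nothing shows separate animals, p-values measure only the spread between these cultures. Sequence sharing, positions and lengths came from GENCODE M21 (GRCm38) and promoters from RefSeq (GRCm38.p6). Sharing is how much of a gene's 50-mers, in percent, also occurred under another symbol.

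The members and lists were chosen with earlier results of these data known. Named genes were all members, Hsf1, Hsf2, up to 3 called genes with the smallest adjusted p of each other list, the highest marker of each marker list, and the 5 genes with at least 20 CPM most correlated with Hspa1a plus Hspa1b. Mcpt8, Ppbp, Alas2, Hsf4, Hsbp1, Cdkn1c, Fstl1, Fos, Fosb, Jun, Atf3, Btg2, Prg2 and the pseudogene copies were named after their values were seen, as was the list of megakaryocyte genes. Alternatives were other scalings (DESeq2 1.42.0 size factors, library totals, iterated TMM), other filters, the DESeq2 Wald test, a replicate block, leaving out each library, and glmTreat against a fold of 1.5. The robust fit, limma-voom (limma 3.58.1) and sums and level orders with copies were chosen after seeing the data. Libraries of a group differed beyond sampling noise (chi-square per degree of freedom at least 2.97). On simulated counts for IL-3 against PBS, 196 of 16428 tested genes were changed 2-fold. Of these 73.5% were called, 100% with the right sign, and 0.0616% of unchanged genes were called. In the measured counts 38.2% of 16675 genes were called, a larger share than was changed in the simulation. How these rates hold with that many changed genes was not tested.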

Additional observations from a re-analysis of the deposited data

How the results depend on the processing

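Hspa1a and Hspa1b rest on 13 to 153 counts per library, and each group has 3 libraries. Over all genes, 3003 were higher and 3372 lower. With library totals as the only scaling 1698 were higher and 5030 lower, and with a fold of 1.5 to be exceeded 709 were higher and 883 lower. That test called 0 members higher and 0 lower (edgeR glmTreat, 3 at an unadjusted p below 0.05, namely Bag3, Hspa1a and Hspa1b), while library totals called 2 members lower, Bag3 and Hspe1. The log2 fold changes of Hspa1a, Hspa1b and their sum were 1.99, 1.84 and 1.94 with DESeq2, 1.95, 1.79 and 1.90 in the robust fit, and 1.19, 1.22 and 1.21 with limma-voom, none of them called. With library totals Hsph1 was at -0.14, Hspd1 at -0.11, Hspe1 at -0.26 (called) and Hsp90ab1 at 0.11 (not called), and iterated TMM put Hsph1 at -0.0049. The call and direction of Dnajb1, Hspa8, Hsp90aa1 and Bag3 held in every alternative run except the test against a fold of 1.5. Library totals moved the list medians to -0.22 for heat shock factors with Hsbp1, 0.076 for other HSP70 genes, 0.012 for J-proteins, -0.13 for HSP70 partners, -0.15 for HSP90 co-chaperones, 0.011 for CCT and prefoldin, -0.11 for mitochondrial chaperones, -0.052 for other heat-induced genes and 0.18 for immediate early genes. With no filter on low counts the medians were -0.72 for small heat shock proteins and -0.17 for other heat-induced genes, since untested low genes then entered. With library totals Prss34 turned to -0.15 (called, adjusted p = 0.0255), Hdac2 to -0.063, Gm7059 to -0.038, Atp5g1 to -0.069 and Zfp276 to -0.018, and iterated TMM put Prss34 at -0.012. Leaving out each library in turn gave 1.41 to 2.51 for Hspa1a, 1.10 to 2.31 for Hspa1b, 1.30 to 2.44 for their sum, -0.072 to 0.070 for Hsph1, -0.0078 to 0.098 for Hspd1, -0.027 to 0.056 for Prss34 and -0.22 to 0.075 for Ms4a1. The list medians then ranged from 0.21 to 0.26 (other HSP70), 0.12 to 0.19 (J-proteins), -0.030 to 0.11 (HSP70 partners), 0.00050 to 0.072 (HSP90 co-chaperones), 0.14 to 0.21 (CCT and prefoldin) and 0.034 to 0.11 (mitochondrial chaperones). Of 39 other named genes, 23 kept direction and call in every alternative except the test against a fold of 1.5, which was not tallied for them. In the alternatives tallied, 6 turned direction in at least 1 and 11 changed call, Prss34 being among both. The cause of these changes was not tested. No source used here says that libraries of the same replicate number share an animal or a day. The correlations of same-numbered deviations were -0.0087, -0.016 and -0.022, which cannot show whether they do. With the replicate block 2842 genes were higher and 3247 lower, 6 members higher and 1 lower, and only Bag5 and Bag4 changed call among the named genes.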

Other observations

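Wide ratios between IL-3 libraries, ranked after the values were seen, were also found for Cdkn1c, an inhibitor of the cell cycle, with 5.24, 4.65 and 1.67 CPM in PBS and 1.09, 8.08 and 0.465 CPM in IL-3. Its highest IL-3 library was replicate 2 and its lowest was replicate 3. Fstl1 had 13.4, 11.4 and 10.4 CPM in PBS and 9.68, 1.67 and 7.76 CPM in IL-3, with the lowest value in replicate 2. These genes thus did not have their lowest IL-3 level in the same library.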
